A study of Mus musculus with 12 samples.

Results

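Dorsal root ganglion (DRG) neurons carried through enzymatic dissociation and magnetic cell sorting were compared with ganglia frozen whole, to see which neuronal genes differed from the native ganglion at the end of the whole procedure. The comparison covered 8 of the 12 samples of the series, 4 MACS-sorted and 4 intact, and 23210 of the 24490 gene rows in the table, since the 1280 rows on chromosomes X and Y were left out. All mice were adult C57Bl/6 with no transgene or drug treatment named in the labels. Each intact sample came from 1 mouse, whose ganglia were snap frozen without dissociation, and each MACS-sorted sample pooled 8 mice, whose ganglia were digested with dispase, collagenase and DNAse, triturated, filtered and passed through a magnetic column that retained cells bound by biotinylated antibodies against non-neuronal cells. The flow-through was therefore chosen by exclusion, with no positive neuronal marker. A further 4 samples of dissociated but unsorted cells, from 2 mice each, are given only as context and entered the fit in 1 alternative only. Every sample was sequenced as polyA RNA, and levels are the authors' FPKM values (fragments scaled to the length of the transcript and the size of the library). Per-sample values are listed in the order of replicates 1 to 4.

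Sensory neurons of the DRG fall into classes with different axons and stimuli. Non-peptidergic C-fibre nociceptors and pruriceptors sense noxious stimuli and itch, peptidergic nociceptors release calcitonin gene-related peptide and substance P, and C low-threshold mechanoreceptors respond to gentle touch. Large-diameter neurons with myelinated axons carry touch and limb position and are rich in neurofilaments and fast-gating potassium channels. In the native ganglion each cell body is wrapped by satellite glia, and its axon runs beside Schwann cells, fibroblasts and vessels.

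The libraries differed in ways other than sorting. Xist, transcribed from the inactive X chromosome of females, lay between 16.1 and 24.4 FPKM in the 4 intact samples and between 0 and 0.337 in the MACS-sorted samples, while the Y-linked Ddx3y lay between 0 and 0.0227 in intact and between 9.29 and 13.7 in MACS-sorted samples. The study's methods name male mice, so the 4 intact samples went against that description, and sex cannot be told apart from preparation for any autosomal gene below. Intact 1 stood apart from the other intact samples: its log2 values correlated at r = 0.92 with each of them against 0.98 among the other 3, its skeletal muscle genes were high (Acta1, skeletal actin, 647 FPKM against 3.58 to 16.4), and its short transcripts read high and long transcripts low (median log2 difference from intact 2 to 4 of 0.43 for genes of up to 2029 bases and −0.33 for genes of 4731 bases or more). Depth, estimated from the FPKM values, was 13800000 to 19900000 fragments per sample. Every fit was therefore repeated without intact 1, and changes to the list counts and gene calls below are stated.

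MACS 3 grouped with the unsorted samples at a few genes. Wdfy1 was 2.82 FPKM in MACS 3 and 2.7 to 3.12 in unsorted samples against 9.97 to 12.8 in the other 7 samples compared here, and Nnt, a mitochondrial transhydrogenase, was 3.41 against 4.98 to 8.12. The neuronal genes Gabra2 and Scn2b showed the same arrangement and are described with their families. C57BL/6 sublines are known to differ at Nnt and Gabra2, but the labels give no subline, and whether the source of the mice had a part in these values was not tested. These genes were chosen after their values were seen.

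A gene was tested where its mean over the 8 samples reached 1 FPKM, and was called where limma on log2(FPKM + 0.1) gave an adjusted p under 0.05, the group means differed by more than 0.5 in log2, and the higher mean exceeded 5 FPKM, with 4 samples in each group. Of 11824 genes tested, 896 rose in MACS-sorted samples (7.58%) and 1269 fell (10.7%). Without intact 1, 903 of 11695 rose (7.72%) and 1177 fell (10.1%), with 765 and 1081 genes called in both fits. The 16 neuronal gene lists held 458 genes, of which 369 were tested, 77 lay under 1 FPKM, 10 were on X, 1 was listed at 0 in every sample and 1 had no row. Of the 369 tested, 109 rose and 70 fell, with a median log2 difference of 0.23 against −0.04 over all genes tested. A member that reached the 1 FPKM mean only through the group in which it was high had to differ, so these counts describe the tested members only. Without intact 1 the counts were 97 and 72.

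**Figure D1:**
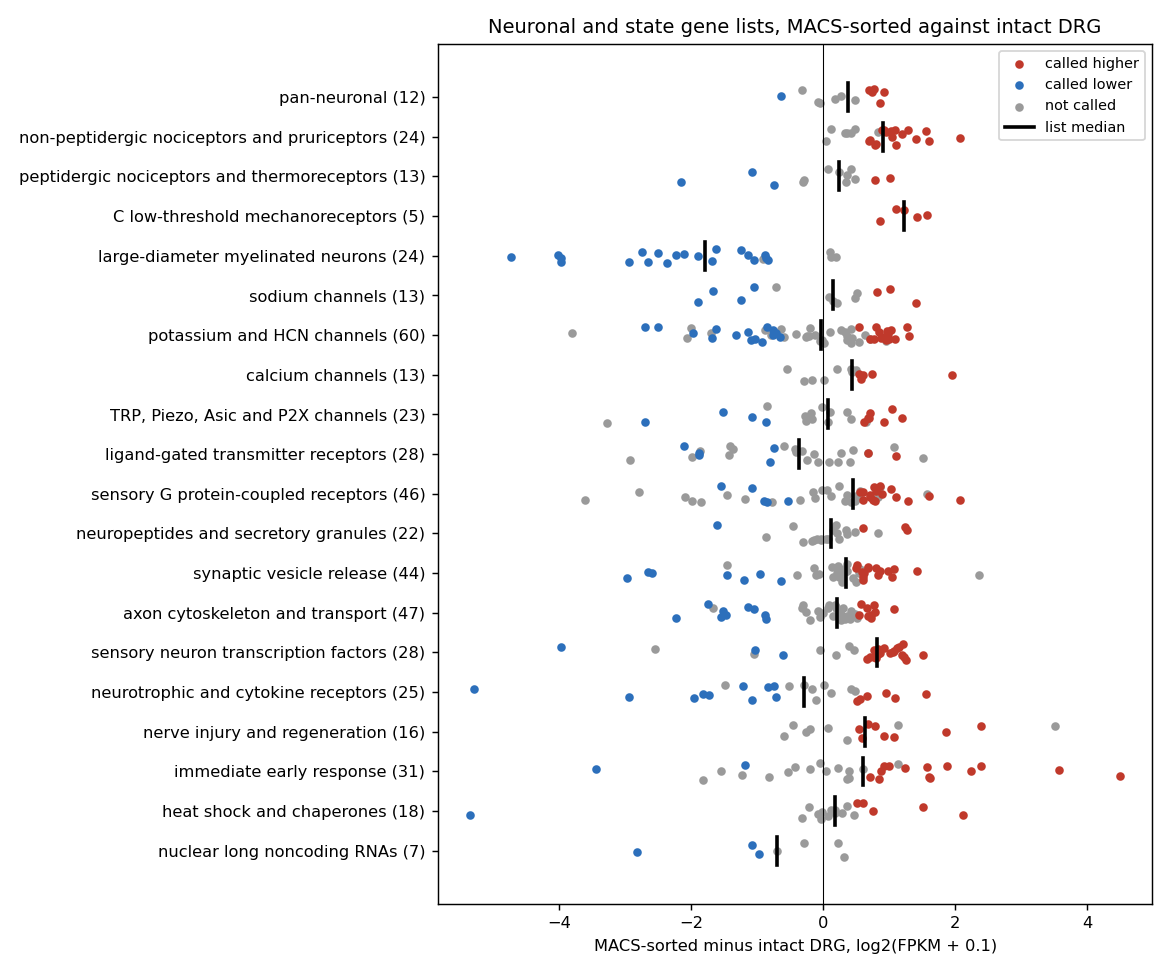
Log2 difference, MACS-sorted minus intact, on log2(FPKM + 0.1) for each tested member (point) of 20 neuronal and cell state lists, with the number tested in parentheses and the list median as a black bar. Large-diameter genes lie almost all to the left (20 of 24 called lower) and C low-threshold mechanoreceptor genes all to the right (5 of 5 called higher).

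Non-neuronal RNA was depleted but not uniformly. Summed FPKM of the satellite glia list was between 1710 and 2070 in intact and between 90.2 and 197 in MACS-sorted samples, with 6 of 8 members called lower. Most of the sorted sums was Glul, glutamine synthetase, the satellite glial marker stained in the study. It was 171, 114, 131 and 119 FPKM in intact and 104, 82.3, 105 and 111 in MACS-sorted samples (−0.41 ± 0.15), and was not called. Apoe, the lipid carrier of satellite glia, was 1430, 1220, 1410 and 1410 FPKM in intact and 8.07, 5.44, 17.5 and 65.1 in MACS-sorted samples. Fibroblast (644 to 1190 against 16.7 to 66.2) and macrophage sums (88.5 to 191 against 1.97 to 8.12) were also separated, and 13 of 14 tested Schwann cell genes fell. None of the 12 endothelial genes was called in either direction with all 8 samples, but 8 were called higher once MACS 2 was left out and 2 were lower after the rescaling to neuronal genes described below. Their sum was 66.9 to 79.4 in intact and 41.6 to 177 in MACS-sorted samples. Red blood cell genes rose in 9 of 15 tested, and their sum went from between 215 and 623 to between 1500 and 12600, highest in MACS 3 and MACS 4. Among the MACS-sorted samples MACS 4 had the highest value for 8 of 8 satellite glia, 13 of 14 Schwann cell and 14 of 15 red blood cell genes. In bulk samples, fewer cells of a type and less RNA per cell cannot be told apart.

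**Figure D2:**
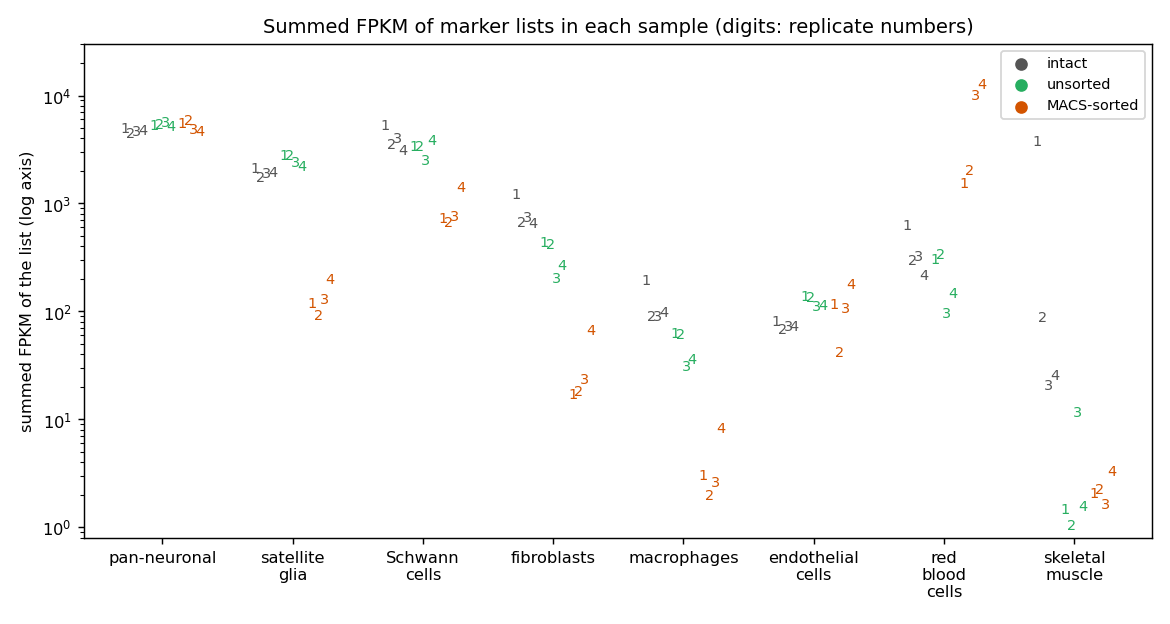
Summed FPKM (log axis) of marker lists in each sample, with digits giving the replicate number in intact (grey), unsorted (green) and MACS-sorted (orange) samples. Glial, fibroblast and macrophage sums are lowest in the MACS-sorted samples, red blood cell sums are highest there, and the pan-neuronal sums lie close together in all 3 preparations.

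Genes shared by all DRG neurons did not move as 1 block. Of 12 pan-neuronal genes 5 rose, 1 fell and 6 were not called (median 0.38). Avil, the actin-binding advillin of sensory neurons, was 150, 186, 203 and 202 FPKM in intact and 363, 403, 326 and 305 in MACS-sorted samples, and rose by 0.92 ± 0.14 (log2 ± SE, adjusted p = 7.2e-04). Rbfox3, Elavl3, Elavl4 and Syt1 rose by 0.70 to 0.87. Tubb3, neuronal beta-tubulin, lay at 735 to 958 in intact and 662 to 949 in MACS-sorted samples, overlapping throughout. Snap25, a core protein of vesicle fusion, fell: 399, 524, 538 and 504 against 333, 319, 304 and 301, a log2 difference of −0.64 ± 0.12 (adjusted p = 0.0032). Uchl1, the most abundant member, had 1170 to 1380 FPKM in intact and 1590 to 2080 in MACS-sorted samples (0.49 ± 0.15), and was called higher when intact 1 or MACS 4 was left out.

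FPKM is a share of each library, so loss of non-neuronal RNA alone moves every neuronal gene upward on this scale. The median of the pan-neuronal genes in each sample, each gene centred on its mean, averaged 0.40 higher in log2 in sorted samples. Single members differed by −0.64 to 0.92, so the rescaled counts depend on this choice of the median. With each sample rescaled to that list, 46 of the 369 neuronal genes were higher and 97 lower, of which 46 and 70 were called the same way on the FPKM scale, and none was called in opposite directions. Over all genes the rescaled counts were 212 higher and 3452 lower, with a median log2 difference of −0.44 against −0.04 before. Lower counts of a list after rescaling therefore include this general fall and do not by themselves mark the list. Within the pan-neuronal list itself 1 was then higher and 2 lower. Counts after this rescaling are given with each list below whose split changed.

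Most non-peptidergic nociceptor and pruriceptor genes rose. Of 24 tested, 17 rose, 15 of them with no overlap between groups (15.6% of all genes tested had every MACS-sorted sample above every intact sample), and none fell. The median was 0.91, and 10 remained called after pan-neuronal rescaling. Mrgpra3, the chloroquine-sensing itch receptor on chromosome 7 (47588950 to 47601372, mm10), was 10.3, 12, 11.7 and 11.9 FPKM in intact and 45, 52.6, 42.2 and 54.9 in MACS-sorted samples, so that every sorted sample was above every intact one. Its log2 difference was 2.07 ± 0.11 (adjusted p = 5.0e-06) and 2.02 without intact 1. Mrgprx1, another itch receptor, went from between 11.2 and 13.2 to between 31.9 and 40 (1.60 ± 0.11). Mrgpr genes are close paralogs, so the split of reads between them depends on the authors' assignment.

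The other leaders of this list were the receptors and channels of polymodal nociceptors. Scn11a, the sodium channel Nav1.9, was 72.2, 104, 97.9 and 95.6 in intact and 275, 249, 269 and 193 in MACS-sorted samples (1.41 ± 0.15, adjusted p = 1.1e-04). Gfra2, the neurturin co-receptor, was 45.8, 48.5, 43.2 and 49 against 117, 174, 139 and 126 (1.56 ± 0.13, adjusted p = 2.4e-05). Both pairs of groups were separate. Mrgprd, the beta-alanine receptor, was 41.7, 53.7, 55.6 and 48.2 in intact and 119, 124, 118 and 59.9 in MACS-sorted samples (1.03 ± 0.22, adjusted p = 0.0061). MACS 4 lay just above the intact range and the other 3 sorted samples well above it. Lpar3, a lysophosphatidic acid receptor, showed the same split more sharply, with 54.6, 57.5 and 69.8 in MACS 1 to 3 and 22.2 in MACS 4, inside the intact range of 22 to 30. Its call (0.89 ± 0.31) was lost when any sample other than MACS 4 was left out.

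**Figure D3:**
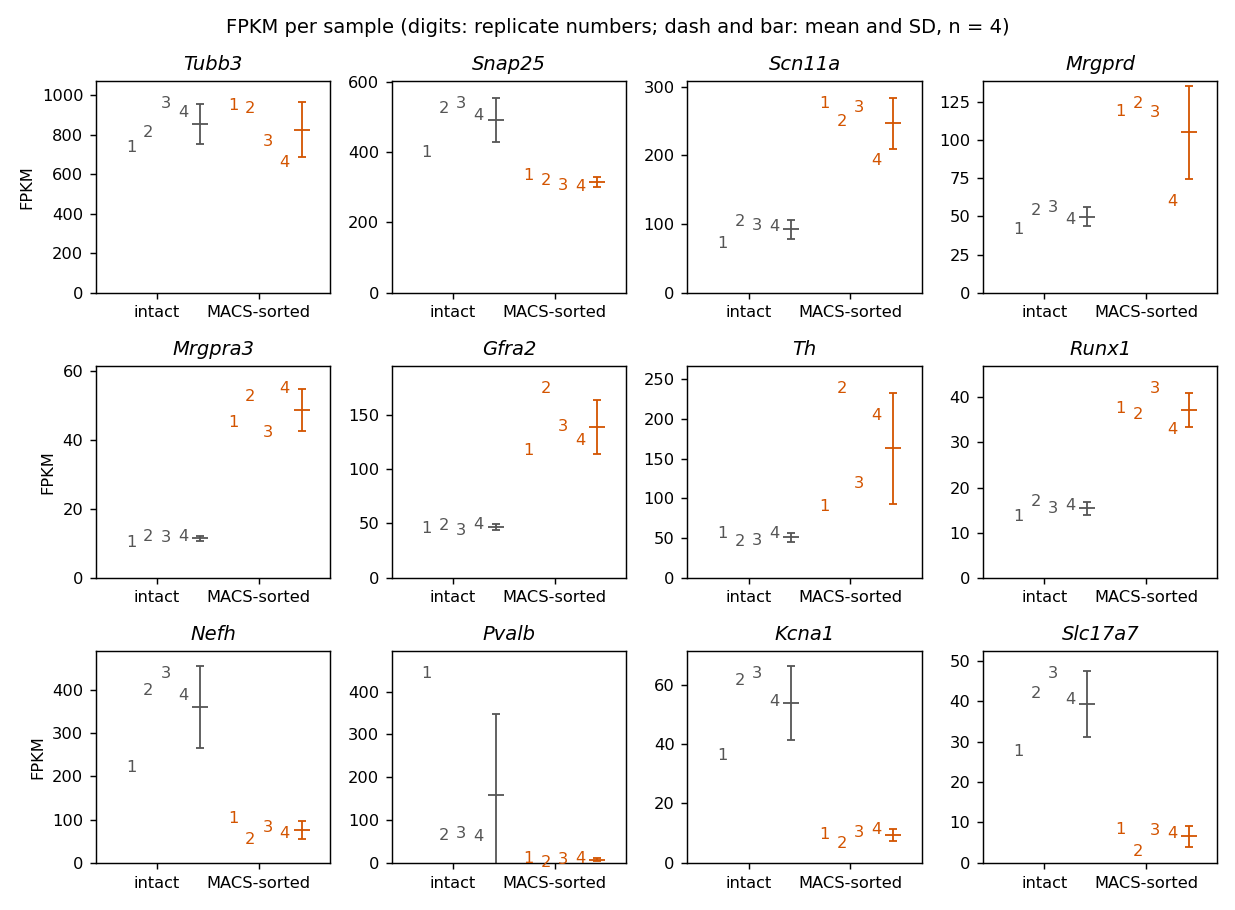
FPKM of 12 genes in each intact (grey) and MACS-sorted (orange) sample, with digits giving the replicate number and the dash and bar the mean and SD (n = 4, the bar cut at 0 for Pvalb). Apart from Tubb3 and Snap25, the genes of the first and second rows lie higher in MACS-sorted samples (Mrgpra3 42.2 to 54.9 against 10.3 to 12). The large-diameter genes of the last row lie lower (Nefh 54.2 to 102 against 221 to 436), and intact 1 stands apart for Pvalb.

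Genes of the itch-sensing neurons that express somatostatin and natriuretic peptide differed among the sorted samples rather than between the groups. Sst was 63.1 FPKM in MACS 1 and 17.5 to 19.9 in MACS 2 to 4, against 13.6 to 26.6 in intact samples. Il31ra, the interleukin-31 receptor, was 31 in MACS 1 and 9.59 to 12.8 in the others, against 8.89 to 12.1 in intact samples. Nppb, Nts, Htr1f and Cysltr2 were also highest in MACS 1, at 2.22 to 3.01 times the mean of the other 3 sorted samples. None of these 6 was called with all 8 samples, while Osmr, the partner of Il31ra, rose (0.96 ± 0.23, adjusted p = 0.010). Nts was called without intact 1 (1.28). Nppb and Nts also varied among intact samples. Nppb was 45.9 FPKM in intact 1 and 17.3 to 20.3 in the others, and Nts was 17.7 against 4.52 to 5.55.

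C low-threshold mechanoreceptor genes rose together. All 5 tested members were called higher with all 8 samples and without intact 1, with a median of 1.23, and 4 were called after pan-neuronal rescaling. Th, tyrosine hydroxylase, which marks these neurons in the DRG, was 55.9, 46.1, 46.5 and 55.7 in intact and 89.7, 238, 119 and 205 in MACS-sorted samples (1.57 ± 0.28, adjusted p = 0.0020). Slc17a8, the vesicular glutamate transporter 3, was 4.01 to 4.87 in intact and 8.43 to 15.5 in MACS-sorted samples (1.42 ± 0.19), and Zfp521 rose by 1.23 ± 0.20. The purinergic receptor P2ry1 rose by 0.87 ± 0.24, with MACS 1 at 25.2 inside the intact range of 20.4 to 26.1, and was not called without MACS 2. MACS 1 was the lowest sorted sample for all 5 members, at 0.478 to 0.597 times the mean of MACS 2 to 4. The sample that was high for Sst and Il31ra was thus low for this list.

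**Figure D4:**
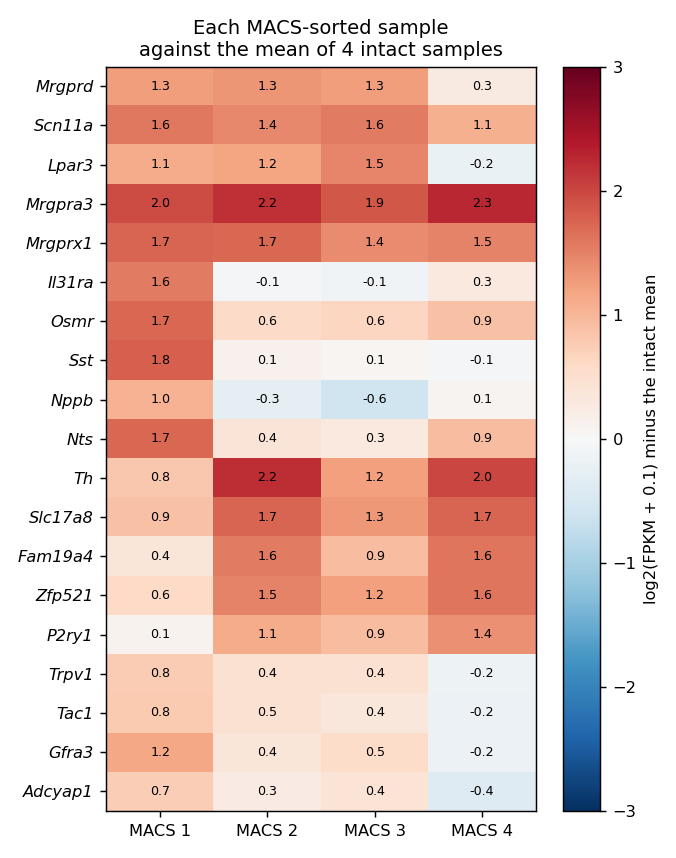
Log2(FPKM + 0.1) of each MACS-sorted sample minus the mean of the 4 intact samples, for 19 nociceptor and C low-threshold mechanoreceptor genes chosen to show differences among replicates. MACS 1 is high for Sst (1.8) and Il31ra (1.6) and low for P2ry1 (0.1), and MACS 4 is low for Mrgprd (0.3) and Lpar3 (−0.2).

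Peptidergic nociceptor and thermoreceptor genes split. Of 13 tested, 2 rose, 3 fell and 8 were not called, with a median of 0.25. Leaving out MACS 4 gave 5 higher, leaving out MACS 3 gave 1 lower, and pan-neuronal rescaling gave 1 higher and 5 lower. Scn10a, the sodium channel Nav1.8, was 101, 161, 156 and 155 in intact and 306, 297, 298 and 237 in MACS-sorted samples (1.01 ± 0.17, adjusted p = 0.0013), and Prph, the intermediate filament peripherin, rose by 0.79 ± 0.15. Calca, which encodes calcitonin gene-related peptide, was 1820, 943, 941 and 1020 in intact and 1130, 992, 917 and 708 in MACS-sorted samples, a difference of −0.30 ± 0.24 that did not pass the test and was −0.07 without intact 1. Tac1, the substance P precursor, was 321 in intact 1 and 128 to 152 in the other intact samples against 152 to 299 in sorted samples, and was called higher only without intact 1 (0.65).

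Thermosensory channels moved unevenly. Trpm8, the cold and menthol receptor, was 9.61, 11.6, 12.4 and 11.8 in intact and 7.7, 8.14, 4.2 and 2.95 in MACS-sorted samples, every sorted sample lying below every intact one (−1.08 ± 0.29, adjusted p = 0.018). Its call was lost without MACS 3 (−0.97). Trpv1, the capsaicin receptor, was 35.2 to 45.4 in intact and 65, 52.6, 52.5 and 34.6 in MACS-sorted samples (0.37 ± 0.18, not called, and called at 0.55 without MACS 4), and Trpa1 behaved likewise (0.43 ± 0.15, and 0.57 without MACS 4). Kit, the stem cell factor receptor, fell by 0.74 on the log2 scale, with MACS 1 at 14.9 inside the intact range of 12.7 to 16.1. Smr2 fell with all 8 samples (−2.15 ± 0.44), but its higher mean dropped under 5 FPKM without intact 1 and it was then not called. MACS 4 was the lowest sorted sample for 11 of the 13 genes.

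Most large-diameter myelinated neuron genes fell. Of 24 tested, 20 fell, none rose, and all 20 had every sorted sample below every intact sample, an arrangement shared by 21.9% of all genes tested. The median was −1.78, against −2.18 after pan-neuronal rescaling. Nefh, the heavy neurofilament subunit on chromosome 11 (4938756 to 4948064, mm10), was 221, 397, 436 and 387 in intact and 102, 54.2, 81.9 and 68.2 in MACS-sorted samples (−2.23 ± 0.25, adjusted p = 1.2e-04). Nefm and Nefl fell by 1.05 and 0.86. Pvalb, parvalbumin of proprioceptors and also of skeletal muscle, was 441 in intact 1, 61.8 to 67.8 in the other intact samples and 1.68 to 11.1 in sorted samples, with a difference of −4.02 ± 0.75 that became −3.33 without intact 1. Ntrk2, the BDNF receptor, whose truncated form is also known from glia, was 21 to 26.9 against 1.75 to 4.85 (−2.93 ± 0.26, adjusted p = 3.7e-05).

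Further members of this list that fell were a channel, a transporter, an enzyme and calcium-binding protein genes. Kcna1, a Kv1 potassium channel of myelinated axons, was 36, 61.4, 63.6 and 54.3 against 9.63, 6.57, 10.3 and 11.1 (−2.50 ± 0.21, adjusted p = 2.9e-05). Slc17a7, the vesicular glutamate transporter 1, was 27.6, 41.9, 46.7 and 40.5 against 8.32, 2.73, 8.07 and 7.22 (−2.65 ± 0.33, adjusted p = 2.7e-04). Ldhb, lactate dehydrogenase B, was 79.4 to 97.4 against 15.6 to 24.2 (−2.10 ± 0.14), and the calcium-binding Calb2 was 4.49 to 6.04 against 0 to 0.693. MACS 2 had the lowest value among sorted samples for 17 of the 24 genes. In the unsorted samples Nefh was 610 to 745 and Slc17a7 71.9 to 98.2, above the intact range in each. Etv1, Gfra1 and Necab2, also in this list, gave 0.11 to 0.20 and were not called, nor was Whrn (−0.90), whose means lay under 5 FPKM. Spp1 (−4.72), Maf (−3.97), Esrrg (−2.74) and Calb1 (−2.36) fell as well, and Spp1 and Maf are also known from macrophages or glia.

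Sodium channel genes moved in both directions. Of 13 tested, 3 rose and 4 fell, the same genes being called without intact 1, and 2 were higher and 4 lower after pan-neuronal rescaling. Scn10a and Scn11a rose as given above, and the beta subunit gene Scn3b rose from between 22.5 and 26 to between 38.4 and 47.4 (0.82 ± 0.09). Scn1a, encoding Nav1.1, was 8.68, 20.3, 21.1 and 18.6 in intact and 3.82, 3.35, 4.65 and 5.83 in sorted samples (−1.89 ± 0.29, adjusted p = 7.9e-04). Scn8a fell by 1.24 and Scn4b by 1.66 on the log2 scale. Scn9a, encoding Nav1.7, was 33.8 to 60.9 against 66.5 to 77.4 (0.52 ± 0.17), and was not called, although it was called when intact 2 was left out (0.61), with median-ratio size factors (0.57) and with red blood cell genes removed (0.56). Scn2b was 33.1 to 35.9 in intact and 50.1, 60.3, 18.8 and 43.9 in sorted samples, and was called higher (0.57) once MACS 3, which lay near the unsorted samples (15.1 to 16.8), was left out.

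Potassium and HCN channels moved in both directions in nearly equal number, 16 higher and 15 lower of 60 tested (median −0.03), and 10 and 18 after pan-neuronal rescaling. Kcnh6, an erg-type channel, was 7.25, 10.6, 11.1 and 12.1 against 22.8, 27, 23.8 and 26.6 (1.30 ± 0.16, adjusted p = 2.0e-04). Kcnk12 rose by 1.28, the Kv4 accessory subunit gene Kcnip4 by 0.95 and Hcn3 by 0.98. Kcnk1 fell by 1.97 and Kcna2 by 1.14. Kcnab2, the most abundant member, was 176 to 225 against 184 to 231 and was not called.

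Calcium channel genes rose in 5 of 13 tested and none fell, but 3 of the 5 calls depended on intact 1. Without intact 1 there were 3 higher, 1 of them newly called, 3 were higher without MACS 1, and after pan-neuronal rescaling 1 was higher and none lower. Cacna1i, the T-type channel Cav3.3, was 1.33, 1.7, 1.86 and 2.04 against 4.51, 8.34, 6.21 and 9.87 (1.96 ± 0.24, adjusted p = 2.4e-04), and Cacnb3 rose by 0.75. Cacna1b, the N-type channel, was 12.5 in intact 1 and 18.7 to 19.3 in the other intact samples against 20.6 to 28.7 (0.58 ± 0.16, and 0.43 without intact 1). Cacna2d1, the target of gabapentin, gave 0.55 and 0.43. Piezo2, the touch channel, was 29 in intact 1, 54.2 to 57.5 in the others and 64.2 to 84.8 in sorted samples (0.72 ± 0.21, and 0.49 without intact 1). The calls of Cacna1b, Cacna2d1 and Piezo2 were also lost without 1 or more of the sorted samples, Cacna1b without MACS 1 or 3, Cacna2d1 without MACS 1, and Piezo2 without MACS 2, 3 or 4.

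Such long genes made up most of the calls that intact 1 decided. Of 209 neuronal and cell state genes called with all 8 samples, 20 were lost without it, 17 of them higher and 3 lower, and in 17 the adjusted p stayed under 0.05 while another criterion of the call failed. The 17 lost higher genes had a median transcript length of 7662 bases against 3196 for all genes tested, and 15 were longer than that median. The 6 higher genes gained had a median length of 1239 bases. No gene was called in opposite directions with and without intact 1, though uncalled differences could change sign.

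**Figure D5:**
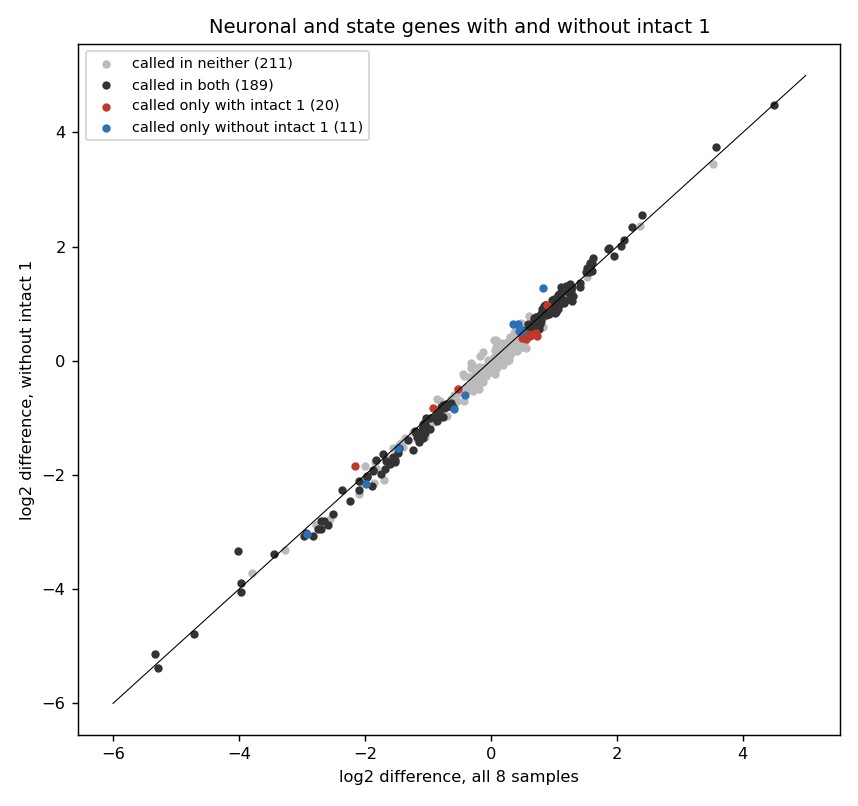
Log2 difference, MACS-sorted minus intact, with all 8 samples (horizontal) and without intact 1 (vertical) for 431 neuronal and cell state genes tested in both fits, with the line of equality. The points lie close to the line, with 189 genes called in both fits, 20 called only with intact 1 and 11 called only without it.

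Sensory transduction channels beyond these gave 7 higher and 4 lower of 23 tested (6 and 4 without intact 1). After pan-neuronal rescaling 2 were higher and 6 lower. P2rx2 and P2rx3, the subunits of ATP-gated nociceptor channels, rose: P2rx3 was 97.8 to 103 in intact and 193, 185, 175 and 112 in sorted samples (0.70 ± 0.16, adjusted p = 0.0088), and P2rx2 was 1.66 to 2.63 against 3.77 to 7.62 (1.20 ± 0.23), a call that was lost without MACS 1. P2rx6 was 6.64, 8.78, 9.62 and 9.13 against 0.976, 1.21, 1.27 and 1.53 (−2.69 ± 0.17, adjusted p = 7.9e-06). The acid-sensing channels moved apart, Asic2 rising by 1.04 ± 0.10 and Asic3, a channel of large and muscle afferents, falling from between 18.1 and 36.3 to between 5.5 and 14.4 (−1.52 ± 0.31).

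Among 28 ligand-gated transmitter receptors 2 rose and 5 fell (2 and 7 without intact 1). The counts were 1 and 9 after pan-neuronal rescaling, and 4 rose without MACS 4. Grik1, the kainate receptor GluK1 of C fibres, was 65.5, 79.7, 74.3 and 74.4 against 158, 182, 170 and 127 (1.10 ± 0.13, adjusted p = 1.5e-04). Chrna7, the alpha7 nicotinic receptor, was 16.5, 24.5, 26.8 and 25.4 against 8.86, 4.51, 6.85 and 2.76 (−2.10 ± 0.32, adjusted p = 8.4e-04), and the serotonin-gated Htr3a fell from between 35.5 and 46.1 to between 7.84 and 15.3 (−1.87 ± 0.21). Gabra2, a GABA-A receptor subunit, was 12.8 in intact 1 and 26.1 to 28.4 in the other intact samples, and 7.74 in MACS 3 and 18.4 to 25.7 in the other sorted samples, a difference of −0.42 that was −0.06 without MACS 3 and was not called in either case.

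Of 46 G protein-coupled receptors 16 rose and 5 fell (median 0.46), and 14 rose and 5 fell without intact 1. The counts were 5 and 8 after pan-neuronal rescaling, and 10 rose without MACS 2. The GABA-B receptor gene Gabbr1, the member with the highest mean FPKM, was at 81.5, 93.4, 91.3 and 91.9 against 139, 149, 142 and 118 (0.61 ± 0.10, adjusted p = 0.0013). F2r, the thrombin receptor, was 3.88, 6.04, 5.26 and 5.76 against 3, 1.59, 1.61 and 1.06 (−1.55 ± 0.28), and was not called without intact 2. Oprm1, the mu opioid receptor, was 2.07 to 4.85 against 3.35 to 5.46 and was not called. Cnr1, the cannabinoid receptor, fell by 0.89 ± 0.20.

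Neuropeptide and secretory granule genes mostly did not pass the test, 3 rising and 1 falling of 22. Without intact 1, 5 rose, and 2 fell without intact 3 or MACS 1. Scg3, a granule sorting protein, was 246, 294, 264 and 271 in intact and 673, 781, 654 and 518 in sorted samples (1.27 ± 0.14, adjusted p = 1.2e-04). Vgf, a secreted peptide precursor, was 18.5, 27.6, 27.3 and 28.8 against 44.8, 77.5, 52.6 and 68.2 (1.24 ± 0.20, adjusted p = 0.0011), and Bdnf rose by 0.61. Pcsk1, a prohormone convertase, was 12.9, 21.1, 24 and 22.4 against 7.46, 6.67, 6.56 and 5.1 (−1.60 ± 0.20, adjusted p = 2.5e-04). After pan-neuronal rescaling 2 were higher and 6 lower.

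Synaptic vesicle genes included paralogs that moved in opposite directions. Of 44 tested, 15 rose and 7 fell (10 and 7 without intact 1, 4 and 9 after pan-neuronal rescaling). The calcium sensor Syt2 of fast synapses was 17.7, 37.3, 41.5 and 36.1 in intact and 10.5, 3.48, 6.97 and 2.74 in sorted samples (−2.59 ± 0.42, adjusted p = 0.0012), whereas Syt7 was 34.7, 44.7, 41.6 and 45.2 against 79.3, 92.4, 84.1 and 73.2 (0.99 ± 0.11, adjusted p = 1.6e-04). Vamp1 fell (136 to 178 against 52.7 to 61.9, −1.46 ± 0.11) while Vamp2 rose (179 to 235 against 282 to 369, 0.68 ± 0.13). Stx1a, a syntaxin of the fusion complex, rose by 0.83. Sv2b had the deepest fall, 38.2, 49.6, 52.7 and 48 against 8.61, 3.42, 7.87 and 5.2 (−2.97 ± 0.26, adjusted p = 3.5e-05). Of the glutamate transporters, Slc17a8 rose, Slc17a7 fell and Slc17a6, the one found in most DRG neurons, was 49.1 to 69.3 against 61 to 73.1 and was not called.

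Axonal genes gave 9 higher and 9 lower of 47 tested (7 and 9 without intact 1). After pan-neuronal rescaling 1 was higher and 13 lower, with a list median of −0.19 against −0.44 over all genes. Ina, alpha-internexin, was 8.81, 11.3, 10.9 and 10.8 against 21.9, 26.1, 21.1 and 19.6 (1.08 ± 0.12, adjusted p = 1.3e-04), in the direction of peripherin and opposite to the neurofilament triplet. Nfasc, an adhesion protein of nodes of Ranvier and initial segments, was 11.2, 22.2, 25.4 and 20.9 against 4.98, 5.27, 6.08 and 6.35 (−1.74 ± 0.23, adjusted p = 3.5e-04), and Cntn1 and Cntnap1, of the adjoining paranodes, fell by 1.54 and 1.14. Map2 fell from between 14.1 and 21.8 to between 3.47 and 12.6 (−1.47 ± 0.34). Dctn1, a dynactin subunit, rose by 0.77 ± 0.16, and the dynein heavy chain gene Dync1h1 (0.73 ± 0.25) was not called when any sample other than intact 3 was left out (0.44 without intact 1).

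Transcription factors of sensory neuron identity rose in 19 of 28 tested (18 without intact 1), with 3 falling and a median of 0.82. After pan-neuronal rescaling 11 stayed called higher. Runx1, which specifies non-peptidergic nociceptors, was 13.5, 16.9, 15.3 and 16 against 37.6, 36.3, 41.9 and 32.8 (1.26 ± 0.11, adjusted p = 2.9e-05). Prdm12, required for nociceptor development, was 45.6, 50.6, 50.7 and 55.8 against 128, 122, 108 and 89.6 (1.13 ± 0.13, adjusted p = 1.2e-04), and Tlx3 rose by 1.23 ± 0.11. Isl2, the most abundant member, was 67.2 to 78.1 against 130 to 170 (1.06 ± 0.11). Insm1, a zinc finger factor of neuroendocrine cells, was 3.6, 2.65, 2.47 and 2.66 against 8.21, 8.65, 7.73 and 8.42 (1.52 ± 0.13, adjusted p = 3.6e-05). All of these groups were separate. Those that fell were Maf, Pou4f3 and Scrt1.

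Receptors for neurotrophic factors and cytokines fell more often than they rose, 10 against 6 of 25 tested. The counts were 11 and 4 without intact 1, and 3 rose without MACS 1 or MACS 3. After pan-neuronal rescaling 14 were lower and 2 higher. Ret, the GDNF family co-receptor, was 86.6, 110, 109 and 110 against 210, 254, 225 and 193 (1.09 ± 0.12, adjusted p = 1.4e-04), and its partner Gfra2 rose as given above. Ngfr, the p75 receptor found on neurons and glia, fell by 0.71 ± 0.13. Fgfr1 was 28.1 to 37.2 against 7.05 to 9.18 (−1.96 ± 0.12, adjusted p = 7.1e-06). The deepest fall, Erbb3 (8.51 to 11.7 against 0 to 1.05, −5.29 ± 0.68), is of a neuregulin receptor known from Schwann cells and satellite glia.

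Genes of nerve injury and of acute stimulation rose in part. Of 16 injury genes tested, 8 rose (7 without intact 1) and none fell, and of 31 immediate early genes 14 rose and 2 fell. After pan-neuronal rescaling the injury genes gave 4 higher and 3 lower and the immediate early genes 11 higher and 6 lower, and 4 immediate early genes were lower without MACS 4. Fosb, on chromosome 7 (19302696 to 19310045, mm10), was 0.334, 0.296, 0.365 and 0.355 in intact and 8.39, 4.49, 12.5 and 19.1 in MACS-sorted samples (4.50 ± 0.38, adjusted p = 2.8e-05). Fos was 4.19, 2.07, 2.67 and 3.43 against 39.2, 18.7, 47.8 and 52.5 (3.58 ± 0.33, adjusted p = 4.0e-05). Both were far above the intact range in every sorted sample, with MACS 2 the lowest. Junb was 5.45 to 8.76 against 28.5 to 41.1 (2.24 ± 0.17), and the injury-induced Atf3 was 2.47 to 4.09 against 14.9 to 16.8 (2.40 ± 0.16, adjusted p = 8.7e-06). In unsorted samples Fos reached 55.6 to 314 and Atf3 4.22 to 24.4. Socs3, a feedback inhibitor of cytokine signalling, rose by 1.86 and Jun by 0.93.

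The promoters of the 4 leading immediate early genes are shown because these genes rose together. Each sequence is the RefSeq promoter window of 300 bases on GRCm38.p6, from 250 bases before to 50 after the gene's start, read 5′ to 3′ on the gene's strand, with the half-site of the cyclic AMP response element (TGACG, or CGTCA on the other strand) in capitals. The windows are chr12:85473640-85473939 (plus strand) for Fos, chr7:19309996-19310295 (minus) for Fosb, chr8:84978699-84978998 (minus) for Junb and chr1:191183284-191183583 (minus) for Atf3.
Fos: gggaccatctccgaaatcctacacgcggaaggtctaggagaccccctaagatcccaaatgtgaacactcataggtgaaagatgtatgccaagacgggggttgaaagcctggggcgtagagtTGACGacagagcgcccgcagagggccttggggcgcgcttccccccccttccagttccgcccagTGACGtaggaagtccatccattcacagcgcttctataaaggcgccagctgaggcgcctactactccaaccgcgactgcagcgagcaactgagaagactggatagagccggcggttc
Fosb: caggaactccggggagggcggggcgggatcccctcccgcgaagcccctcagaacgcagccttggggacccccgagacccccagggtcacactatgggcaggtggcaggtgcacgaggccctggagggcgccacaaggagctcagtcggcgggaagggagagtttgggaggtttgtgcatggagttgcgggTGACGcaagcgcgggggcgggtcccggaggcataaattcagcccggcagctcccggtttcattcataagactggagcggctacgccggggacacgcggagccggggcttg
Junb: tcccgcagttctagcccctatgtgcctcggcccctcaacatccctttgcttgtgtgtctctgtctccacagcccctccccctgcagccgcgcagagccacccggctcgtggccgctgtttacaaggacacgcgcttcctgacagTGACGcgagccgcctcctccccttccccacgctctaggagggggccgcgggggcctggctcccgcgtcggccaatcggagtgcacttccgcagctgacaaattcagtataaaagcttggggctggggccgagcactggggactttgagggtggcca
Atf3: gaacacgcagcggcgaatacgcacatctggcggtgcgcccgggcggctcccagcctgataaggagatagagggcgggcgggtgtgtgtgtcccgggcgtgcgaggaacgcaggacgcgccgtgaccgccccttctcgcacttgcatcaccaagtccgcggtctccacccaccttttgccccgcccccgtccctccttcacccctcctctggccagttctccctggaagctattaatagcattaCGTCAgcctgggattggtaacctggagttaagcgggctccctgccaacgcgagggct

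Fos held 2 half-sites and the other 3 genes 1 each, and none of the 4 held the full element TGACGTCA, which contains the half-site on both strands. The half-site occurs in 20.8% of the 32851 RefSeq promoter windows. Among the 14 immediate early genes that rose, 11 had a window that was searched, and 7 of these held the half-site. Of the 17 tested members that did not rise, 15 had a window that was searched, and 9 of these held it. By window this was 13 of 23, some of them overlapping windows of the same gene. Windows on 1 chromosome were left out of this search of the list. A match describes letters in the window and not a bound factor.

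Not all early genes followed. Egr2, also a Schwann cell factor, was 7.13, 6.15, 8.21 and 4.34 in intact and 0.156, 0.0225, 1.07 and 3.2 in sorted samples (−3.44 ± 0.88, adjusted p = 0.013). Nr4a1 was 10.9 to 12 in intact and 2.15, 1.23, 6.93 and 11.8 in sorted samples, not called with all 8 and called lower without MACS 4 (−2.07). MACS 2 had the lowest sorted value in 22 of the 31 genes and MACS 4 the highest in 19. Jund, the most abundant, rose from between 26.4 and 36.2 to between 53.6 and 58.1 (0.88 ± 0.11), and Dusp1 rose by 1.25 ± 0.16. Gap43, the growth cone protein that leads the injury list in abundance, was 109 to 127 against 75.9 to 123 and was not called.

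Of 18 heat shock and chaperone genes tested, 5 rose (6 without intact 1) and 1 fell (median 0.18). After pan-neuronal rescaling 1 was higher and 3 lower. Hspa1b, an inducible Hsp70, was 2.9, 2.33, 3.33 and 3.14 against 11.6, 10.7, 14.4 and 15.6 (2.12 ± 0.16, adjusted p = 1.5e-05), and its near-identical neighbour Hspa1a rose by 1.51, reads being divided between them by the authors' assignment. Hsp90ab1 was 635 to 719 against 984 to 1320 (0.76 ± 0.13). Cryab, alpha-B-crystallin, which is abundant in glia and muscle, was 210, 119, 122 and 111 against 2.69, 1.82, 2.66 and 8.46 (−5.34 ± 0.41, adjusted p = 1.9e-05).

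Nuclear long noncoding RNAs fell in 3 of 7 tested and rose in none. Neat1, the scaffold of paraspeckles, was 39.1, 76.6, 84.3 and 75.1 against 6.99, 4.56, 8.51 and 26.7 (−2.82 ± 0.48, adjusted p = 0.0015), and Malat1 was 152 to 173 against 65.2 to 118 (−0.97 ± 0.17). MACS 4 was highest for all 7 members. Meg3 was 101, 219, 223 and 221 in intact and 75.9, 86.8, 89 and 275 in sorted samples, not called with all 8 and called lower without MACS 4 (−1.12), and Snhg11 showed the same split, 125 to 128 in MACS 1 to 3 and 275 in MACS 4. The unsorted samples were lower than both groups for Meg3 (19.5 to 25.4) and Malat1 (35.5 to 43.4).

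Over all genes, the largest differences were taken among genes called with and without intact 1, with separate groups and no sample at 0 FPKM. The 5 largest rises so defined included Hemgn, Slc4a1 and Ctse of the red cell lineage and Fosb. Slc4a1, the anion exchanger of red cells, was 0.511 to 1.47 in intact and 28, 15.4, 26 and 90.3 in sorted samples (4.83 ± 0.50). The 5 largest falls under the same limits were Ptgds, Igf2, Col1a1, Col3a1 and Islr, genes of fibroblasts, meninges and glia. Ptgds, prostaglandin D synthase, was 605, 368, 543 and 564 against 1.66, 0.409, 1.71 and 11.5 (−7.94 ± 0.75, adjusted p = 5.0e-05).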

How the data were processed

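PolyA RNA from 4 intact, 4 unsorted and 4 MACS-sorted samples was sequenced by the authors with a directional kit. Per the labels, each sample held material from 1, 2 or 8 mice and the replicates were biological. The submitters' processing notes name TopHat2, SAMtools, Cufflinks 2.1.1 and the mm10 build, and the deposited table holds FPKM per gene as the authors made it. No read counts were used, and whether strand was used in counting is not given in the sources used here (75 of 369 tested neuronal genes overlap a gene on the other strand in GENCODE M21). Depth was estimated from the steps between low FPKM values and covers counting error only.

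Rows on X and Y were left out. Testing used genes that averaged 1 FPKM or more across both groups, on log2(FPKM + 0.1) with limma 3.58.1 (trend, R 4.3.3) and Benjamini-Hochberg adjustment, intact and MACS-sorted samples only. A call needed an adjusted p under 0.05, group means that differed by more than 0.5 in log2 and more than 5 FPKM in the higher group. Errors are SE from limma, two-sided. The fold change understates low genes because of the pseudocount. On simulated data, 91% of genes changed by 1 on the log2 scale and 99% of those changed by 2 were called in the right direction, among 11486 genes. Named genes were, per neuronal or cell state list, the called members with the largest rise and fall whose groups did not overlap and the member with the highest mean, the highest mean of each non-neuronal list, and the 5 largest rises and falls over all genes. Other named genes were picked with their values in view, and results for a few genes are not reported here. The lists and the comparison were chosen with earlier results of these data known. Alternatives were other pseudocounts, filters, scalings, weights, a replicate block and leaving out each sample. Promoter windows came from RefSeq on GRCm38.p6.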

Additional observations from a re-analysis of the deposited data

Results flagged for a closer look

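This check covered 132 genes and not every gene named above, Acta1 for example being outside it. A sample was marked where its gap to the nearest of the other 3 in its group was large against the group's range. Dixon's test at the 95% level was used, which marks about 1 in 20 groups by chance. Of 264 groups of 4 samples, 41 were marked: 24 by intact 1, 12 by MACS 4, 3 by MACS 1 and 2 by intact 2. Part of the 132 genes had been picked with their values in view, some to show differences among replicates. The number marked therefore cannot be set against the rate of 1 in 20. No explanation was tested.

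Intact 1 was lowest for Scn10a (101 FPKM against 155 to 161 in the other 3), Ret (86.6), Snhg11 (113), Nefm (441), Piezo2 (29), Cacna1b (12.5), Gabra2 (12.8), Vgf (18.5), Dync1h1 (36.8), Klf7 (31.1), Meg3 (101) and Map2 (14.1). It was highest for the peptide genes Calca (1820 against 941 to 1020), Nppb (45.9), Tac1 (321) and Nts (17.7), for Insm1 (3.6), Atf3 (4.09), Cryab (210) and Pvalb (441), for the fibroblast gene Dcn (518), the macrophage gene Lyz2 (64.7) and the oligodendrocyte gene Mobp (3.8), and for Mylpf of fast muscle (700 against 3.56 to 13.1). Intact 2 was lowest for Prph (773) and Apoe (1220).

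MACS 4 was lowest for Scn10a (237 against 297 to 306) and Mrgprd (59.9 against 118 to 124). It was highest for Cryab (8.46), Snhg11 (275), Meg3 (275), the endothelial gene Egfl7 (22.6), the red cell gene Slc4a1 (90.3), and the residual Ptgds (11.5), Igf2 (0.884), Col1a1 (5.57), Col3a1 (4.44) and Islr (1.34). MACS 1 was highest for Il31ra (31 against 9.59 to 12.8), Sst (63.1 against 17.5 to 19.9) and the neutrophil gene S100a8 (24.3 against 0.909 to 3.77).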

How the results depend on the processing

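The counts over all genes, 896 higher and 1269 lower, stayed within 1.5 times under most alternatives. Rescaling to the pan-neuronal list gave 212 higher and 3452 lower, and the same without intact 1, an alternative chosen after seeing the data, gave 207 and 3285. A log2 ratio beyond 1 left 182 and 797, and a higher mean above 1 FPKM gave 2140 lower. Leaving out each sample in turn gave 807 to 987 higher and 1138 to 1256 lower. With the replicate block the counts were 889 and 1270. Deviations of samples that share a number correlated at −0.07 to 0.07, and those of other pairs at −0.13 to 0.14. Samples with the same number were thus no more alike than others. Whether they shared a preparation was not tested. Quantile normalization moved the split from 896 and 1269 to 1195 and 1128, and median-ratio size factors to 1100 and 1149. Of 3282 values of 132 genes under the alternatives, 3101 kept their side of the threshold, 131 lost the call, 50 gained it and 0 reversed. Direction was compared only where a gene was called, so values that stayed uncalled could change sign. Depth in the FPKM table is an estimate, and genes under 1 FPKM were not tested. With 4 samples a group, differences under 0.5 in log2 were not called.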

Other observations

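Marker lists of other cell types moved unevenly. Summed FPKM of the neutrophil list was 44.4 to 148 in intact 2 to 4 and 2.52 to 42.7 in sorted samples, and 3 of 7 tested members fell. S100a8, a granulocyte calcium-binding protein, was 44.2, 53.4, 66 and 20.8 in intact and 24.3, 3.77, 0.909 and 3.72 in sorted samples, so that MACS 1 lay inside the intact range. Adipocyte genes fell in 2 of 2 tested. Pericyte and smooth muscle genes fell in 3 of 5 tested (2 of 4 without intact 1), and 1 was called higher without MACS 1. Their sums were 87.8 to 97.8 in intact 2 to 4 and 56 to 125 in sorted samples.

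Of the 3 central nervous system genes tested, 1 was called higher. Mobp, an oligodendrocyte myelin gene, was 3.8, 0.527, 0.448 and 0.779 in intact and 4.05, 1.43, 5.94 and 15.3 in sorted samples, and 0.0601 to 0.859 in unsorted samples (2.24 ± 0.77, adjusted p = 0.046). The call was lost without any 1 of MACS 1, 3 or 4 or intact 2, 3 or 4.

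Within the sorted group the highest and lowest samples depended on the list. MACS 1 was highest for 13 of 24 non-peptidergic and 8 of 13 peptidergic genes, MACS 4 lowest for 14 and 11 of them, and MACS 4 also lowest for 33 of 47 axonal and 30 of 44 synaptic vesicle genes.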
